A study of Homo sapiens and Mus musculus with 24 samples.

Results

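Keratins are the intermediate filament proteins of epithelial cells. The 10 keratin genes described here, KRT7, KRT8, KRT15, KRT17, KRT18, KRT19, KRT20, KRT23, KRT80 and KRT81, were chosen by symbol among 58051 human gene identifiers, and their mouse counterparts were found by the same name ignoring case. All 10 were listed in both species. RNA was sequenced in 4 Caco-2 lines. Caco-2 is a human colorectal adenocarcinoma line. WT cells (4 libraries) were the unedited line. In ΔDNMT3A cells (4 libraries), the DNA methyltransferase gene DNMT3A was cut by CRISPR-Cas9 and 1 clone was expanded. Into ΔDNMT3A cells, a tagged DNMT3A1 (3 libraries) or DNMT3A2 isoform (4 libraries) was put back under a CMV promoter and again expanded as a clone, so both of these lines also carry the deletion. A line and its clone therefore cannot be told apart. Mouse colonic epithelial cells, purified by EpCAM at 12 weeks of age, came from Dnmt3a fl/fl controls (4 libraries) and from Dnmt3a ΔIEC mice (4 libraries), in which Villin-Cre removes the floxed part of Dnmt3a in intestinal epithelium only. The labels do not say whether the Caco-2 libraries came from separate cultures, so p-values measure the spread between these libraries, which may be technical.

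A keratin filament is built from pairs of 1 type I (acidic) and 1 type II (basic) chain, so cells need both kinds. Simple epithelia such as the gut lining use KRT8 as the type II partner of KRT18, KRT19 and KRT20. KRT20 is made mainly by mature cells of the intestinal surface and is a clinical marker of colorectal origin. KRT7 marks many other glandular epithelia and is low in most of the colon. KRT15 and KRT17 belong to stratified epithelia and skin appendages, KRT17 also to wounded and stressed epithelium. KRT80 is a widely expressed type II keratin and KRT81 a hard keratin of the hair shaft. KRT23 is a type I keratin found in some glandular tumours, and its role is less well known. Most type I genes sit in a cluster on human chromosome 17 and the type II genes on chromosome 12. DNMT3A adds methyl groups to cytosine in CG pairs.

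Counted fragments ranged from 22104408 to 42161299 per Caco-2 library and from 16943626 to 24921248 per mouse library. Lane tags in the deposited names place the Caco-2 libraries in sequencing lanes 5 and 6, each holding libraries of every line. The deleted gene was checked first. DNMT3A RNA was 65.4 ± 2.48 CPM (fragment counts scaled to a common library size; SD, n = 4) in WT, 20.7 ± 1.27 (SD, n = 4) in ΔDNMT3A, 37.7 ± 1.13 (SD, n = 3) in DNMT3A1 and 21.8 ± 1.36 (SD, n = 4) in the libraries labelled DNMT3A2. The last 2 differed from ΔDNMT3A by log2 fold changes of 0.87 (adjusted p = 1.91e-11) and 0.07 (adjusted p = 0.272), both by the quasi-likelihood test of edgeR, adjusted after Benjamini and Hochberg. Gene counts, which do not separate the edited gene from the added copy, therefore showed no added DNMT3A RNA in the libraries labelled DNMT3A2. For protein, the paper reports both isoforms as re-expressed, by immunoblot and by nuclear immunofluorescence. In the mice, Dnmt3a was 93.6 ± 7.79 CPM (SD, n = 4) in fl/fl and 46.2 ± 3.08 (SD, n = 4) in ΔIEC. All 8 listed markers of intestinal epithelium were detected in Caco-2, with a summed level between 2246 and 2763 CPM, but the absorptive colonocyte markers CA1, MS4A12 and AQP8 held at most 3 counts in every Caco-2 library.

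In Caco-2 cells, 3 keratins made up nearly all keratin RNA. Per kilobase of exon, KRT18 was highest in each line (848 to 1350 CPM per kb as group means), followed by KRT8 (426 to 684) and KRT19 (351 to 364), and the ranges of these neighbours did not overlap in any line. The other 7 stayed at or below 12.9 CPM per kb in every group mean. KRT18, KRT8 and KRT19 held 52.9, 28.1 and 18.8% of the summed keratin level per kb in WT. Of all counted fragments, the 10 genes together took 0.776% in WT libraries and 0.993% in ΔDNMT3A on average, against 0.782% for DNMT3A1 and 0.653% for the libraries labelled DNMT3A2. The order of KRT18 and KRT8 rests on the exon length given to each, since in CPM without length KRT8 was above KRT18 in every line (3679 against 3238 in WT). KRT20 and KRT23, low in WT, each stood out in a different line.

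**Figure D1:**
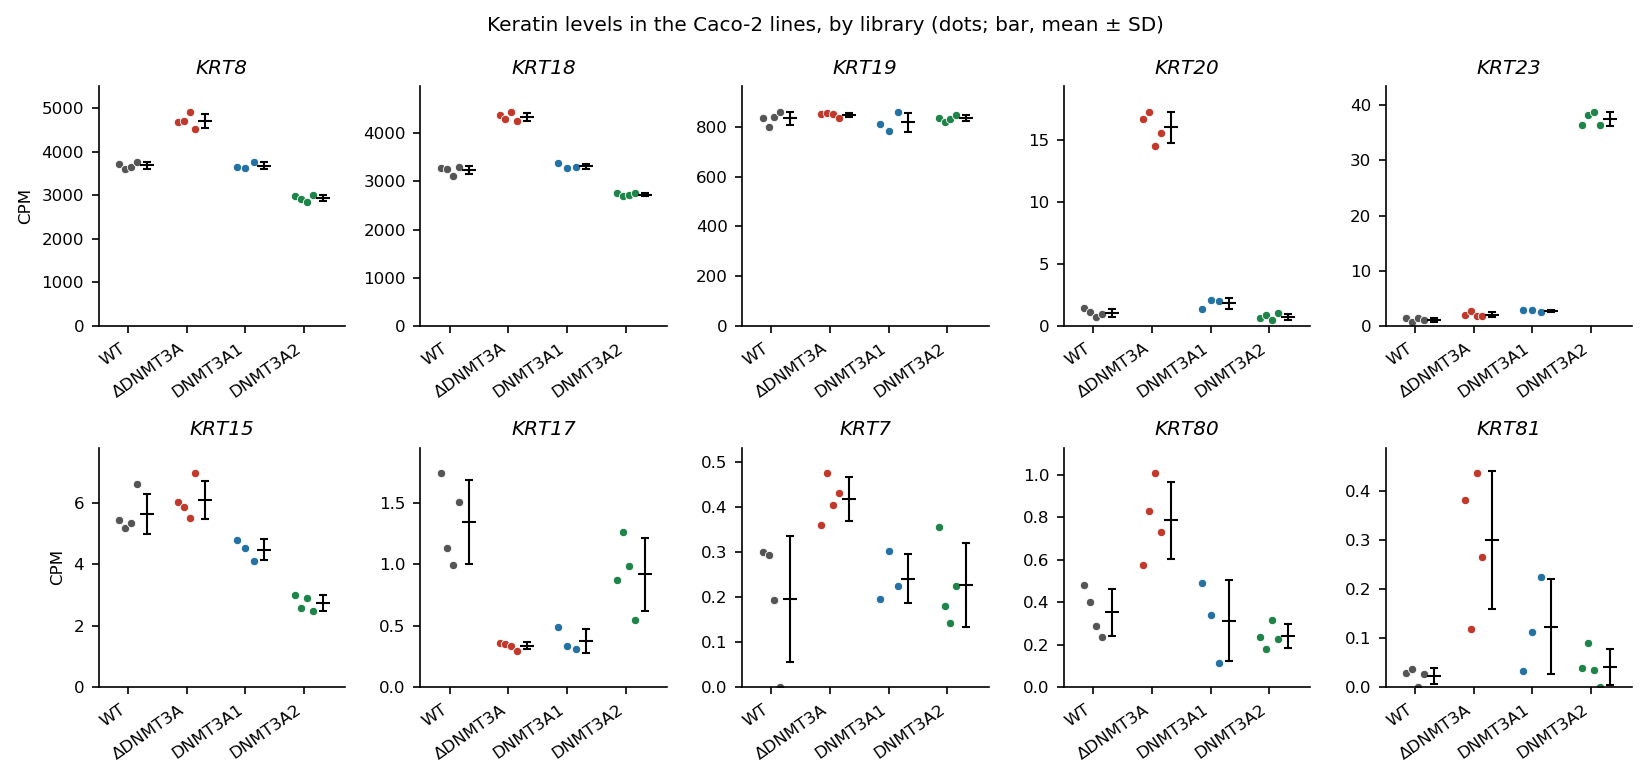
Level of each of the 10 keratins (CPM on TMM library sizes, vertical axes from 0 and scaled per gene) in every WT, ΔDNMT3A, DNMT3A1 and DNMT3A2 Caco-2 library; dots are libraries and bars the mean ± SD. KRT20 was between 14.6 and 17.3 CPM in ΔDNMT3A and at most 2.11 elsewhere, KRT23 was between 36.5 and 38.9 CPM in the libraries labelled DNMT3A2 and at most 2.90 elsewhere, and KRT19 lay between 785 and 862 in all lines.

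KRT8 and KRT18, the founding pair of simple epithelia, were higher in ΔDNMT3A than in any other line and lowest in the libraries labelled DNMT3A2. KRT8 (ENSG00000170421) lies on the minus strand of chromosome 12 (GRCh38, 52897187 to 52949954). Its 4 WT libraries held 3724, 3597, 3636 and 3760 CPM, and its 4 ΔDNMT3A libraries 4686, 4698, 4914 and 4518 CPM. DNMT3A1 libraries held 3640, 3617 and 3760 CPM, within the range of WT. The libraries labelled DNMT3A2 held 2971, 2906, 2839 and 2998 CPM, below all others. From WT to ΔDNMT3A, KRT8 rose by a log2 fold change of 0.36 (SE 0.028, 1.29-fold, adjusted p = 4.09e-11 in edgeR, as for all adjusted p-values that follow unless DESeq2 is named).

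KRT18 (ENSG00000111057) is a type I gene that sits among the type II genes, beside KRT8 on the plus strand of chromosome 12 (52948871 to 52952901). Both gene models overlap at their ends on opposite strands, and the human counts were made by strand. KRT18 held 3283, 3253, 3118 and 3297 CPM in WT and 4378, 4289, 4450 and 4264 CPM in ΔDNMT3A, with no overlap between these groups. In DNMT3A1 it held 3377, 3271 and 3302 CPM, which overlapped WT, and in the libraries labelled DNMT3A2 2756, 2690, 2708 and 2759 CPM, below WT. Between WT and ΔDNMT3A it rose by a log2 fold change of 0.43 (SE 0.026, 1.35-fold, adjusted p = 5.95e-13). Against ΔDNMT3A, KRT18 fell by 0.38 and KRT8 by 0.35 on the log2 scale in DNMT3A1, and both fell by more in the libraries labelled DNMT3A2, with log2 fold changes of -0.67 and -0.68. Against WT, the libraries labelled DNMT3A2 were still lower for KRT18 (log2 fold change -0.24, adjusted p = 3.56e-10) and KRT8 (-0.32, adjusted p = 9.08e-13), while DNMT3A1 gave 0.06 (95% interval -0.01 to 0.13) and 0.02 (-0.05 to 0.09), neither past the threshold. The KRT18 value did pass in DESeq2 (adjusted p = 0.0373) and with all 4 lines in 1 fit (adjusted p = 0.0430), both at 0.06 on the log2 scale. Within lane 6, where DNMT3A1 has 1 library, it was 0.07. Of the 8 markers of intestinal epithelium, 3 were higher in ΔDNMT3A than in WT, 2 were lower and 3 did not pass. EPCAM gave a log2 fold change of 0.44 and CLDN7 0.28, whereas ELF3 gave -0.24 and CDX2 -0.15. Their summed level was 2364 to 2440 CPM in WT and 2733 to 2763 CPM in ΔDNMT3A, and its part in the KRT8 and KRT18 values was not tested. Both genes have many processed copies in the genome and fragments with several matches were not counted, so their absolute levels may be understated.

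KRT19 (ENSG00000171345, chromosome 17, minus strand, 41523617 to 41528308) lacks the tail domain of other keratins and partners KRT8 as well. It held 838, 800, 841 and 861 CPM in WT, 851, 857, 854 and 837 in ΔDNMT3A, 811, 785 and 862 in DNMT3A1 and 838, 821, 831 and 849 in the libraries labelled DNMT3A2. These groups all overlapped. None of the 6 comparisons between lines passed the threshold for KRT19 in edgeR, neither at an unadjusted p under 0.05 nor in DESeq2. The log2 difference of ΔDNMT3A from WT was 0.03, with a 95% interval from -0.02 to 0.08. This interval bounds only the difference between these sets of libraries.

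KRT20 (ENSG00000171431, chromosome 17, minus strand, 40875941 to 40885227) was low in WT, though above the floor of 3 counts in every library, and higher in ΔDNMT3A. WT libraries held 1.44, 1.10, 0.674 and 0.951 CPM, between 21 and 48 counts each. The 4 ΔDNMT3A libraries held 16.7, 17.3, 14.6 and 15.6 CPM, between 433 and 698 counts each. KRT20 was low in both isoform lines, with 1.34, 2.11 and 1.97 CPM in DNMT3A1 and 0.633, 0.858, 0.460 and 0.999 CPM in the libraries labelled DNMT3A2. Only ΔDNMT3A stood apart from all other lines without overlap. The log2 fold change was 3.95 in ΔDNMT3A against WT (SE 0.120, 15.5-fold, adjusted p = 8.80e-19), -3.15 in DNMT3A1 against ΔDNMT3A (SE 0.112, adjusted p = 6.59e-15) and -4.43 in the libraries labelled DNMT3A2 against ΔDNMT3A (SE 0.126, adjusted p = 4.38e-19). All 3 values share the ΔDNMT3A libraries. ΔDNMT3A against WT gave 3.72 within lane 5 and 4.20 within lane 6. DNMT3A1 was above WT by a log2 fold change of 0.81 (SE 0.221, adjusted p = 0.00226), though the libraries overlapped. The value was 0.43 (adjusted p = 0.18) within lane 5. Within lane 6 it was 1.28, where DNMT3A1 has 1 library and its spread is taken from WT. The libraries labelled DNMT3A2 against WT gave -0.48 (adjusted p = 0.0991), a value that did not pass, but did without WT replicate 3 (-0.64, adjusted p = 0.0343) or DNMT3A2 replicate 4 (-0.69, adjusted p = 0.0364). Within lanes 5 and 6 it was -0.78 (adjusted p = 0.0459) and -0.14 (adjusted p = 0.769). Of the 8 absorptive colonocyte markers, the 3 that could be tested in ΔDNMT3A against WT gave no call in edgeR or DESeq2 and none at an unadjusted p under 0.05. Their summed level over all 8 was 2.78 to 3.43 CPM in WT and 2.40 to 3.28 CPM in ΔDNMT3A. Among 5 tested markers of crypt base and proliferating cells, 1 was higher and 2 were lower, with the stem cell marker LGR5 at 35.1 CPM in WT and 6.54 in ΔDNMT3A (log2 fold change -2.42). Of 2 tested goblet markers, ZG16 was higher (1.04) and TFF3 lower (-0.58). Their part in the KRT20 values was not tested.

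The bases just before the KRT20 start are shown because this gene had the largest change of the 10 in ΔDNMT3A and CG pairs are the substrate of DNMT3A. RefSeq windows were matched for KRT20 and KRT8 among the 10. The KRT8 window lies 21393 bases from the start of its canonical transcript and is not printed. KRT7, KRT15, KRT17, KRT18, KRT19, KRT23, KRT80 and KRT81 had no matched entry. The 250 bases before the start of KRT20, chr17:40885243-40885492 on the minus strand of GRCh38.p14, read 5′ to 3′ with each CG in capitals:
KRT20: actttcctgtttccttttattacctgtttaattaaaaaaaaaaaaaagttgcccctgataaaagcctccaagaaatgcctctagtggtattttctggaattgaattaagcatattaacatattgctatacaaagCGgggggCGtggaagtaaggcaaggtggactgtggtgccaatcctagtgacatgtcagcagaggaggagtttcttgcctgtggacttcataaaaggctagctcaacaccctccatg
The stretch holds 2 CG pairs, against a median of 11 over 35116 RefSeq windows of the same length, of which 22.9% hold as few. It is 41.2% G or C. The letters CCAAT, searched on both strands, occur 1 time (in 32% of all windows), and neither TATAAA (10.7% of windows) nor AGATAA (9.17%) is found in these letters. These are matches of letters only, and no methylation was analysed here.

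KRT23 (ENSG00000108244) is the next gene to KRT20 on the same strand of chromosome 17 (40922696 to 40937634), 37468 bases away with no annotated gene between them. Its pattern was different. KRT23 held 1.38, 0.623, 1.41 and 0.977 CPM in WT, 1.89, 2.64, 1.78 and 1.79 CPM in ΔDNMT3A and 2.90, 2.79 and 2.5 CPM in DNMT3A1. The libraries labelled DNMT3A2 held 36.5, 38.2, 38.9 and 36.5 CPM, far above the others. The log2 fold change of these libraries was 4.21 against ΔDNMT3A (SE 0.083, 18.5-fold, adjusted p = 4.94e-22) and 5.08 against WT (SE 0.095, 33.9-fold, adjusted p = 1.04e-27). Within lanes 5 and 6 the value against ΔDNMT3A was 4.08 and 4.39. DNMT3A1 against the libraries labelled DNMT3A2 gave -3.78 (SE 0.074, adjusted p = 7.80e-24). ΔDNMT3A was above WT by a smaller step, 0.88 on the log2 scale (SE 0.198, 1.84-fold, adjusted p = 0.000458). DNMT3A1 against ΔDNMT3A gave 0.43 (adjusted p = 0.0231) with overlapping libraries, and this call was lost within lane 5 (adjusted p = 0.141). In lane 6, where DNMT3A1 has 1 library, the value was 0.49. Without any 1 of ΔDNMT3A replicates 1, 3 and 4 or DNMT3A1 replicates 1 and 2, the call was also lost (adjusted p between 0.0583 and 0.0821). DNMT3A RNA in the libraries with high KRT23 did not differ detectably from that in ΔDNMT3A.

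**Figure D2:**
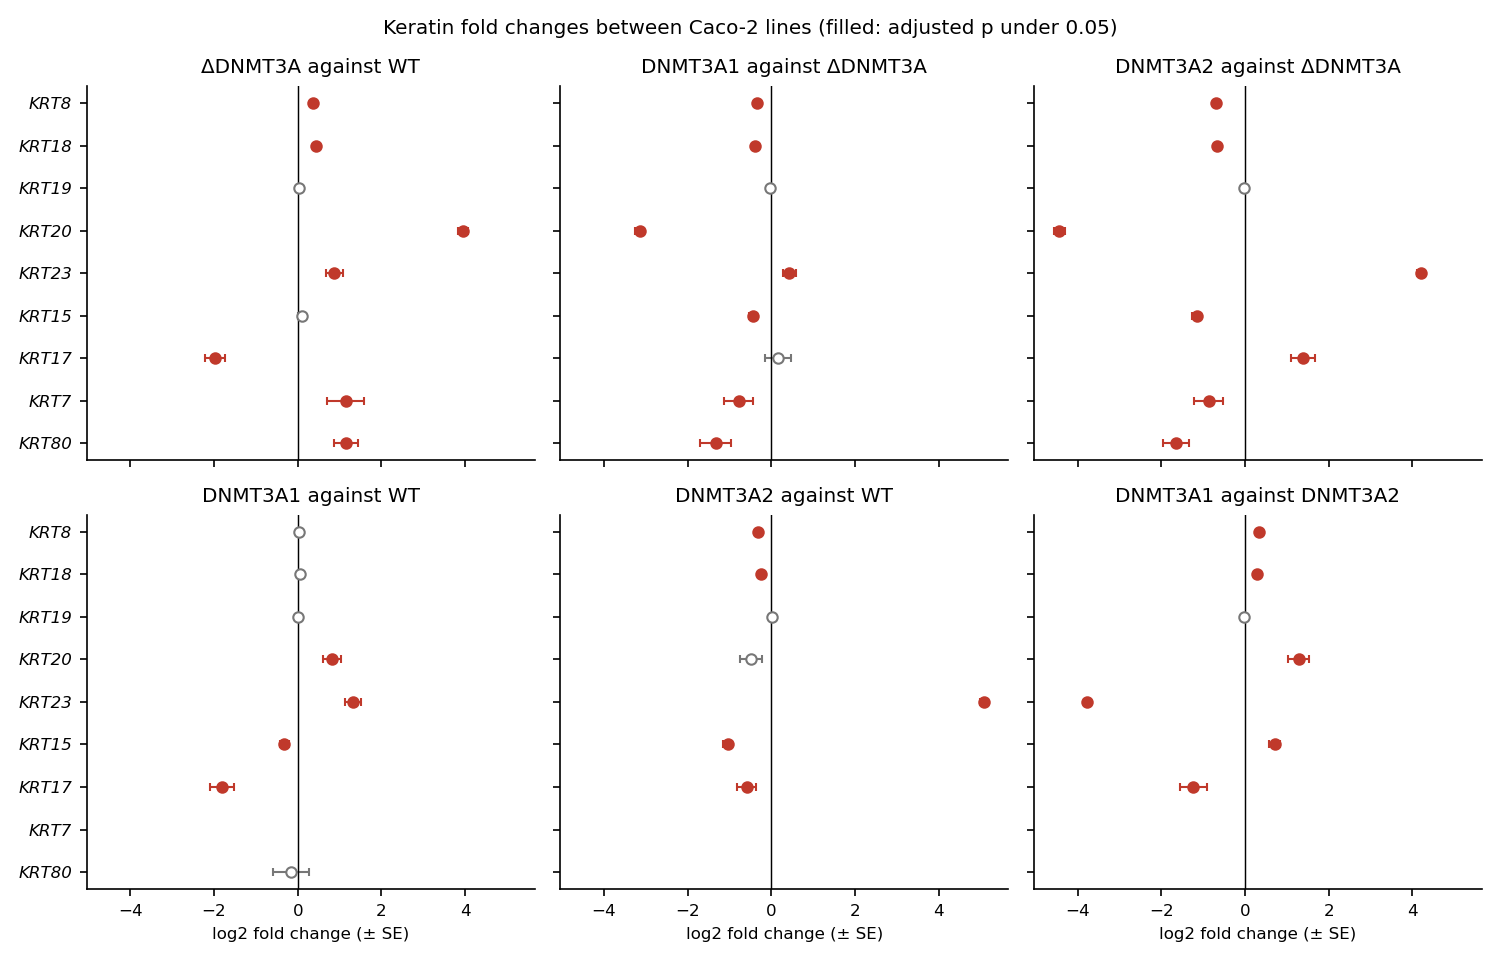
Log2 fold change (horizontal axis, bars ± SE) of the 9 keratins tested in at least 1 of the 6 comparisons between Caco-2 lines; filled points passed an adjusted p under 0.05, open points did not, and rows without a point were not tested there. KRT20 has the largest change in ΔDNMT3A against WT (3.95) and in the libraries labelled DNMT3A2 against ΔDNMT3A (-4.43, with KRT23 at 4.21), and KRT23 in the libraries labelled DNMT3A2 against WT (5.08), while KRT19 stays next to 0 in all 6.

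The keratins of stratified epithelia moved apart from each other. KRT17 (ENSG00000128422, chromosome 17, minus strand, 41619437 to 41624842) was the 1 member that was lower in ΔDNMT3A than in WT. It held 1.74, 1.14, 0.995 and 1.51 CPM in WT and 0.359, 0.356, 0.336 and 0.298 CPM in ΔDNMT3A, without overlap (log2 fold change -1.98, SE 0.243, adjusted p = 1.40e-07). These are few fragments, 31 to 58 counts per WT library and 9 to 15 per ΔDNMT3A or DNMT3A1 library. In ΔDNMT3A against WT, KRT17 passed the filter on low counts only through WT, where it is high, so its direction was fixed by it. DNMT3A1 libraries, at 0.489, 0.339 and 0.309 CPM, stayed near ΔDNMT3A (log2 fold change 0.16, adjusted p = 0.681) and below WT (-1.81, adjusted p = 3.41e-06). The direction against WT was again fixed, since KRT17 passed the filter only through WT. The libraries labelled DNMT3A2 held 0.870, 1.27, 0.990 and 0.548 CPM, above ΔDNMT3A by 1.39 (SE 0.284, adjusted p = 0.000132). That direction was fixed too, since KRT17 passed the filter there only through the libraries labelled DNMT3A2. Against WT, their value of -0.59 (adjusted p = 0.0251) lost the call in DESeq2 (adjusted p = 0.0516), within both lanes (adjusted p = 0.211 and 0.0607) and without WT replicate 1 or 4 or DNMT3A2 replicate 1 or 4 (adjusted p between 0.0520 and 0.146). The 10 listed markers of squamous epithelium summed to 16.9 to 20.3 CPM in WT, 1.80 to 2.12 in ΔDNMT3A, 3.99 to 5.09 in DNMT3A1 and 1.07 to 1.59 in the libraries labelled DNMT3A2, with KRT5 and KRT14 at no more than 3 counts in every library. DSC3, a desmosomal cadherin, carried most of this sum, at 15.4 CPM in WT and at most 3 counts per library in ΔDNMT3A. KRT4, the only other one that could be tested, was 3.37 CPM in WT, 1.10 in ΔDNMT3A and 3.62 in DNMT3A1. Among the untested ones, KRT6A held at most 1 count in WT and 5 to 15 in ΔDNMT3A. KRT13 held 3 to 4 and 5 to 11. The sum is therefore not a change of the whole list. The part of these markers in the KRT17 values was not tested.

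KRT15 (ENSG00000171346, chromosome 17, minus strand, 41513743 to 41522529), next to KRT19, was lowest in the libraries labelled DNMT3A2. It ranged from 5.16 to 6.60 CPM in WT and from 5.51 to 6.96 CPM in ΔDNMT3A, which overlapped (log2 fold change 0.11, adjusted p = 0.316). DNMT3A1 libraries ranged from 4.11 to 4.79 CPM and those labelled DNMT3A2 from 2.48 to 3.00 CPM, so these groups overlapped neither each other nor WT. Against ΔDNMT3A the log2 fold changes were -0.44 in DNMT3A1 (adjusted p = 0.00119) and -1.15 in the libraries labelled DNMT3A2 (SE 0.105, adjusted p = 1.16e-09). DNMT3A1 against WT gave -0.32 (adjusted p = 0.00936), a call that was lost within lane 5 (-0.17, adjusted p = 0.303). It was also lost without WT replicate 4 (adjusted p = 0.0637) or DNMT3A1 replicate 4 (adjusted p = 0.0615). Lane 6, with 1 DNMT3A1 library, gave -0.52.

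The type II members other than KRT8 lay near the limit of these libraries. Against ΔDNMT3A, KRT7 and KRT80 passed the filter on low counts only through that line, where they are highest, so their direction was fixed by it. KRT80 (ENSG00000167767, chromosome 12, minus strand, 52168996 to 52192000) ranged from 0.238 to 0.481 CPM in WT, from 0.575 to 1.01 in ΔDNMT3A, from 0.113 to 0.489 in DNMT3A1 and from 0.181 to 0.318 in the libraries labelled DNMT3A2. ΔDNMT3A was above each of the other lines without overlap, with a log2 fold change of 1.15 against WT (SE 0.281, adjusted p = 0.000941). Within lane 5 it was 0.63 (adjusted p = 0.168) and within lane 6 1.73 (adjusted p = 0.00154). DNMT3A1 against ΔDNMT3A gave -1.33 (adjusted p = 0.00354), with -0.87 (adjusted p = 0.0399) without DNMT3A1 replicate 4. Within lane 5 the value was -0.70 (adjusted p = 0.133). Within lane 6, where DNMT3A1 has 1 library with 4 counts, it was -2.90. KRT7 (ENSG00000135480, chromosome 12, plus strand, 52232520 to 52252186) held 10, 8, 6 and 0 counts in WT and 15, 16, 12 and 13 in ΔDNMT3A. Its log2 fold change of 1.15 (SE 0.447, adjusted p = 0.0274) was 0.65 (adjusted p = 0.107) without WT replicate 4, the library at 0, and the call was also lost without WT replicate 3 or ΔDNMT3A replicate 2. Within lanes 5 and 6 it was 0.46 (adjusted p = 0.4) and 2.22 (adjusted p = 0.0180). KRT7 was lower than in ΔDNMT3A in DNMT3A1 (-0.78, adjusted p = 0.0487) and in the libraries labelled DNMT3A2 (-0.87, adjusted p = 0.0281), but neither call held in DESeq2 (adjusted p = 0.167 and 0.0907). The first was also lost without any 1 of ΔDNMT3A replicates 2, 3 and 4 or DNMT3A1 replicates 1 and 4, and the second without any 1 of ΔDNMT3A replicates 2 and 4 or DNMT3A2 replicates 2, 3 and 4 (adjusted p between 0.0520 and 0.167). KRT81 (ENSG00000205426, chromosome 12, minus strand, 52285913 to 52291534) passed the filter on low counts in no comparison. It held 1, 1, 0 and 1 counts in WT, 16, 4, 13 and 8 in ΔDNMT3A, 1, 3 and 8 in DNMT3A1 and 1, 2, 1 and 0 in the libraries labelled DNMT3A2. Against a floor of 3 counts per library, the mean KRT81 level of ΔDNMT3A was at least 3.21-fold that of WT. The ΔDNMT3A library at 4 counts lay close to this floor. KRT81 resembles neighbouring hair keratin genes closely, so its few fragments are uncertain.

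Counted together, 7 of the 9 keratins tested between ΔDNMT3A and WT were called, 6 of them higher in ΔDNMT3A and 1 lower. Over all 16654 genes tested, 62.2% passed, 31.2% higher and 31.0% lower, and 55.1% had libraries that did not overlap, as did 7 of the 9 keratins. KRT7 and KRT80 passed the filter on low counts only in comparisons that include ΔDNMT3A, apart from KRT80 in DNMT3A1 against WT. They are highest in ΔDNMT3A, so their direction in those comparisons was fixed by the filter. KRT17 passed it only through WT in ΔDNMT3A against WT and in DNMT3A1 against WT. In the comparisons of the libraries labelled DNMT3A2 with ΔDNMT3A and with DNMT3A1, KRT17 passed it only through the libraries labelled DNMT3A2. KRT17 is higher in those groups, so its direction there was fixed as well. Counts and medians of all these comparisons share this limit. In DNMT3A1 against ΔDNMT3A, 1 keratin was higher and 6 were lower of 9 tested (all genes: 60.7% called, 30.4% higher and 30.3% lower), and 6 of the 9 did not overlap (all genes: 59.5%). In the libraries labelled DNMT3A2 against ΔDNMT3A, 2 were higher and 6 lower of 9 (all genes: 67.9% called, 33.8% higher and 34.1% lower), and 8 did not overlap (61.1%). Against WT, DNMT3A1 gave 2 higher and 2 lower of 8 tested (all genes: 65.3% called, 32.6% higher and 32.7% lower), and 3 did not overlap (62.7%). The libraries labelled DNMT3A2 gave 1 higher and 4 lower of 7 against WT (all genes: 68.7% called, 34.3% higher and 34.4% lower), and 4 did not overlap (61.5%). Between both isoform lines, 4 were higher in DNMT3A1 and 2 lower, of 7 (all genes: 68.5% called, 34.5% higher and 33.9% lower), and 6 did not overlap (66.1%). These comparisons share libraries, so their counts are not independent. With a log2 fold change of at least 1 required as well, 4 keratins remained in ΔDNMT3A against WT (8.51% of genes), namely KRT7, KRT17, KRT20 and KRT80. Of these, KRT7, KRT17 and KRT80 carry the limit of the filter. The same rule left 2 in DNMT3A1 (8.32% of genes) and 5 in the libraries labelled DNMT3A2 (11.9%) against ΔDNMT3A, 2 in DNMT3A1 (12%) and 2 in the libraries labelled DNMT3A2 (11.1%) against WT, and 3 between the isoform lines (13.1%). For ΔDNMT3A against WT, the median log2 fold change of the 9 tested keratins was 0.43, and that of all genes -0.005.

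The balance of type II to type I chains overlapped among WT, ΔDNMT3A and DNMT3A1 libraries and was lower in those labelled DNMT3A2, as a description with no test. Summed per kb of exon, the ratio was 0.392 ± 0.005 (SD, n = 4) in WT, 0.397 ± 0.008 (SD, n = 4) in ΔDNMT3A and 0.386 ± 0.007 (SD, n = 3) in DNMT3A1. In the libraries labelled DNMT3A2 it was 0.349 ± 0.006 (SD, n = 4), and the highest of these (0.353) lay below the lowest of the other lines (0.378). Its absolute size depends on the exon length assigned to KRT8, which is 6881 bases summed over all its transcripts but 1784 for the canonical one. Counted without length, the ratios were 0.902, 0.901, 0.886 and 0.812 in the same order. The ratio of KRT8 to KRT18 in CPM was 1.14, 1.08, 1.11 and 1.07. For this pair alone, WT libraries (1.11 to 1.17) lay above ΔDNMT3A (1.06 to 1.10) without overlap. Those labelled DNMT3A2 (1.05 to 1.09) overlapped ΔDNMT3A.

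Keratins outside the 10 were mostly silent in Caco-2. Of 45 listed, 5 could be tested in ΔDNMT3A against WT, of which KRT10, KRT34, KRT38 and KRT71 were higher and KRT4 was lower (all genes: 62.2% called). KRT34 and KRT38 passed the filter on low counts only through ΔDNMT3A, where they are high, so their direction was fixed by it. KRT4, a keratin of the oesophageal lining, was 3.37 ± 0.281 CPM in WT and 1.10 ± 0.225 in ΔDNMT3A (SD, n = 4 each; log2 fold change -1.62, adjusted p = 6.37e-10). DNMT3A1 held 3.62 ± 0.600 CPM (SD, n = 3) of it and the libraries labelled DNMT3A2 0.973 ± 0.190 (SD, n = 4). KRT34, KRT36, KRT37 and KRT38, chosen here after their values were seen, encode type I hair keratins of the chromosome 17 cluster, as KRT81 is a type II hair keratin. KRT34 held 0 counts in all 4 WT libraries and 26, 35, 12 and 14 in ΔDNMT3A. As a mean, the latter was at least 6.73-fold higher against the floor of 3 counts per library. It held at most 1 count in DNMT3A1 and at most 3 in the libraries labelled DNMT3A2. KRT38 held 16 to 25 counts in ΔDNMT3A and at most 5 elsewhere. KRT36 held 6 to 11 and KRT37 2 to 8 counts in ΔDNMT3A, and neither held over 2 in any other library. The type II hair keratin KRT86 held 4, 3, 6 and 6 counts in WT and 12, 11, 3 and 7 in ΔDNMT3A, which overlapped. Of 149 listed keratin pseudogenes, 16 were tested, 6 higher and 1 lower in ΔDNMT3A (all genes: 62.2% called), among them KRT8P11 (0.66) and KRT8P3 (0.41) on the log2 scale. Fragments shared between a gene and its copies were not counted.

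**Figure D3:**
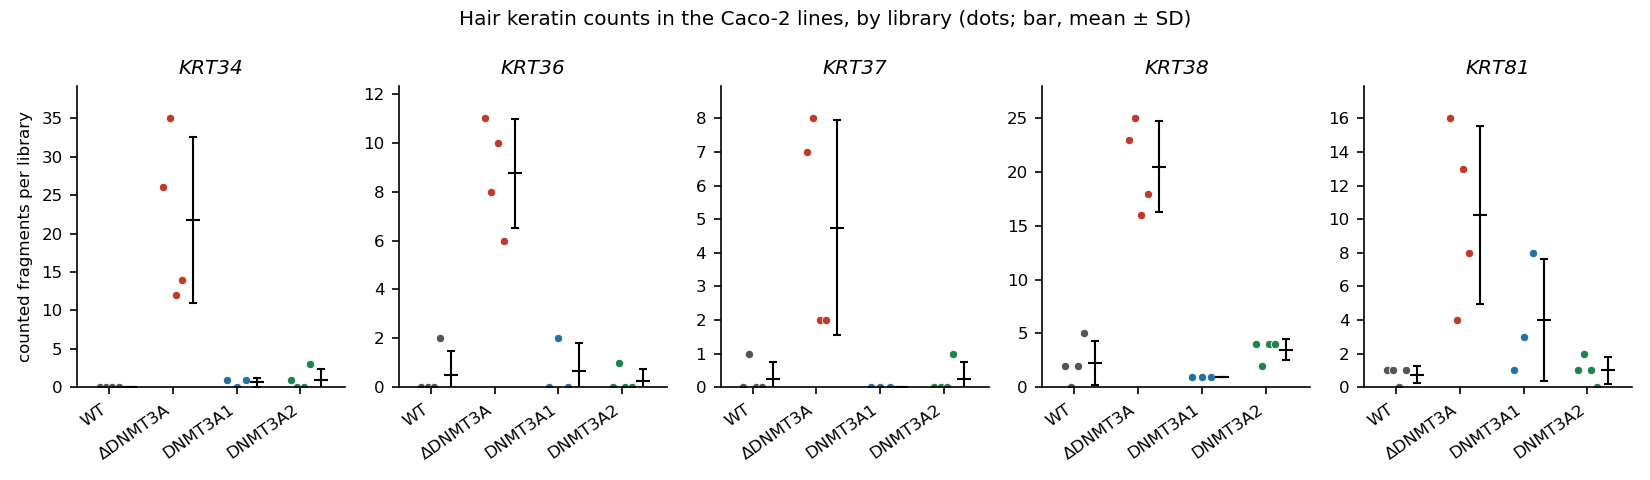
Counted fragments per library (vertical axes from 0, scaled per gene) for the hair keratin genes KRT34, KRT36, KRT37, KRT38 and KRT81 in the 4 Caco-2 lines; dots are libraries and bars the mean ± SD. KRT34 reads 12 to 35 in ΔDNMT3A and 3 or fewer elsewhere, and KRT38 16 to 25 against 5 or fewer.

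Genes that anchor or handle keratin filaments were read from lists that do not include the 10. Of 14 tested desmosomal plaque and cytolinker genes, which tie filaments to junctions, 9 were higher and 3 lower in ΔDNMT3A than in WT. PERP, a desmosomal membrane protein, rose from 157 ± 4.22 to 522 ± 8.56 CPM (SD, n = 4 each; log2 fold change 1.74). DST, a plakin that links keratin to hemidesmosomes, rose by 1.35. EVPL, the cornified-envelope plakin envoplakin, fell by 3.04 and the desmosomal cadherin DSC2 fell by 1.11 on the log2 scale. EVPL passed the filter on low counts only through WT, where it is high, so its direction was fixed by it. Of 20 keratin-binding and keratin-handling genes, 9 were higher and 5 lower. PRKCE, a kinase that phosphorylates KRT8 and KRT18, rose by 1.69, and the transglutaminase gene TGM2 fell by 0.61 on the log2 scale. Of 11 other intermediate filament genes tested, 3 were higher and 5 lower, with NES (nestin) at -1.10 and LMNA (lamin A and C) at 0.47. Among 19 intestinal transcription factor genes, 5 were higher and 10 lower: KLF4, a factor of surface epithelial cells, gave 1.22, HNF4G -2.61 and FOXA1 -0.84. All genes named in this paragraph passed the threshold. The shares called in ΔDNMT3A against WT are to be read against the 62.2% of all genes. Against ΔDNMT3A, where 60.7% of all genes were called, DNMT3A1 had 4 desmosomal and cytolinker genes higher and 6 lower of 14, 6 keratin-handling genes higher and 11 lower of 20, and 9 transcription factor genes higher and 4 lower of 19. The libraries labelled DNMT3A2 had 4 higher and 9 lower of 13, 8 and 7 of 20, and 9 and 6 of 19 for the same lists, with 67.9% of all genes called.

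The genes whose levels followed each keratin most closely over the 15 Caco-2 libraries were ranked by Pearson's r among 13760 genes, as a description, since the libraries share lines and values. For KRT20 these were PLB1 (r = 0.983), SGK1 (0.981) and YWHAH (0.979). PLB1, a brush border phospholipase, averaged 99.7 CPM in ΔDNMT3A, 4.11 in WT, 8.37 in DNMT3A1 and 2.05 in the libraries labelled DNMT3A2. KRT23 was followed by CRABP1 (0.991), HERC4 (0.988) and AKR1C3 (0.987). CRABP1, a retinoic acid carrier, averaged 54.2 CPM in the libraries labelled DNMT3A2 and 18.5 in WT. KRT8 ranked with MPZL1 (0.993), KRT18 with CAVIN1 (0.992), KRT15 with ERAP1 (0.974), KRT17 with PHF14 (0.942) and KRT80 with ASH2L (0.880). The closest genes reached 0.783 for KRT19 (TNIP2) and 0.769 for KRT7.

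In mouse colonic epithelium the keratin repertoire was broader, and no keratin passed the threshold between the genotypes. Per kb of exon, Krt8 led (2068 ± 115 CPM per kb in fl/fl, SD, n = 4), followed by Krt20 (753 ± 129) and Krt19 (750 ± 77.6), whose ranges overlapped, then Krt18 (332 ± 41.9). Krt20 thus held 19.1% of the summed keratin level in fl/fl, while KRT20 held 0.030% in WT Caco-2. Krt8, the common type II partner, held 3878, 3563, 3544 and 3945 CPM in fl/fl and 3834, 3936, 4183 and 5006 CPM in ΔIEC, which overlapped (log2 fold change 0.17, 95% interval -0.12 to 0.47, adjusted p = 0.640).

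Krt18 (ENSMUSG00000023043, chromosome 15) held 479, 504, 379 and 499 CPM in fl/fl and 601, 565, 661 and 678 CPM in ΔIEC. These groups did not overlap, with a log2 fold change of 0.42 (SE 0.123, 95% interval 0.18 to 0.66) but an adjusted p of 0.189 in edgeR and 0.0474 in DESeq2. Krt19 (chromosome 11) held 1364, 1261, 1344 and 1596 CPM in fl/fl and 1642, 1698, 1599 and 1912 CPM in ΔIEC, also without overlap (0.29, adjusted p = 0.343). Krt23 held 9.51, 9.44, 13.6 and 9.99 CPM in fl/fl and 18.3, 15.7, 14.0 and 13.3 CPM in ΔIEC, where 1 fl/fl mouse fell within the ΔIEC range (0.52, adjusted p = 0.199).

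Krt20 held 1343, 1810, 1244 and 1404 CPM in fl/fl and 901, 1168, 1414 and 2019 CPM in ΔIEC, so the ΔIEC mice spread to both sides of the controls (log2 fold change -0.09, 95% interval -0.54 to 0.37, adjusted p = 0.906). Krt7 ranged from 84.8 to 138 CPM in fl/fl and from 112 to 137 in ΔIEC, Krt80 from 1.34 to 3.01 and 1.45 to 3.46, and Krt15 from 1.19 to 1.74 and 0.726 to 2.54. All 3 overlapped. Krt17 held at most 1 count and Krt81 at most 7 counts in any mouse, and neither was tested.

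Of the 8 mouse keratins tested, 0 passed the threshold in edgeR, 3 had an unadjusted p under 0.05 (Krt18, Krt19 and Krt23) and 1 passed in DESeq2 (Krt18). Among all 14626 genes, 14.1% had an unadjusted p under 0.05 and 2.78% passed in DESeq2. In edgeR 0.691% passed, 0.602% higher and 0.0889% lower in ΔIEC, and 0.554% also had a log2 fold change of at least 1. Libraries did not overlap for 10.2% of genes and for 2 of the 8 keratins. The type II to type I ratio was 1.14 ± 0.099 in fl/fl and 1.14 ± 0.045 in ΔIEC (SD, n = 4 each). Of the other keratins 8 of 44 were tested and 0 passed in edgeR or DESeq2, with 2 at an unadjusted p under 0.05. No desmosomal, keratin-handling, other intermediate filament or transcription factor gene passed in edgeR (14, 19, 9 and 19 tested, with 1, 2, 0 and 0 at an unadjusted p under 0.05 and 1, 1, 0 and 0 past in DESeq2). Markers of tuft cells, rare chemosensory cells that are rich in Krt18, were all higher in ΔIEC (4 of 4), and their summed level was 38.6 to 50.6 CPM in fl/fl and 126 to 156 CPM in ΔIEC. Their part in the Krt18 values was not tested. In such bulk samples, more cells of a type and more RNA per cell cannot be told apart. Absorptive colonocyte, goblet, crypt, enteroendocrine and stromal markers (8, 6, 6, 4 and 5 tested) gave 0 calls in edgeR and DESeq2, with 1, 0, 0, 1 and 1 at an unadjusted p under 0.05. Of 3 immune cell markers tested, 0 passed in edgeR, 1 passed in DESeq2 and 1 had an unadjusted p under 0.05.

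**Figure D4:**
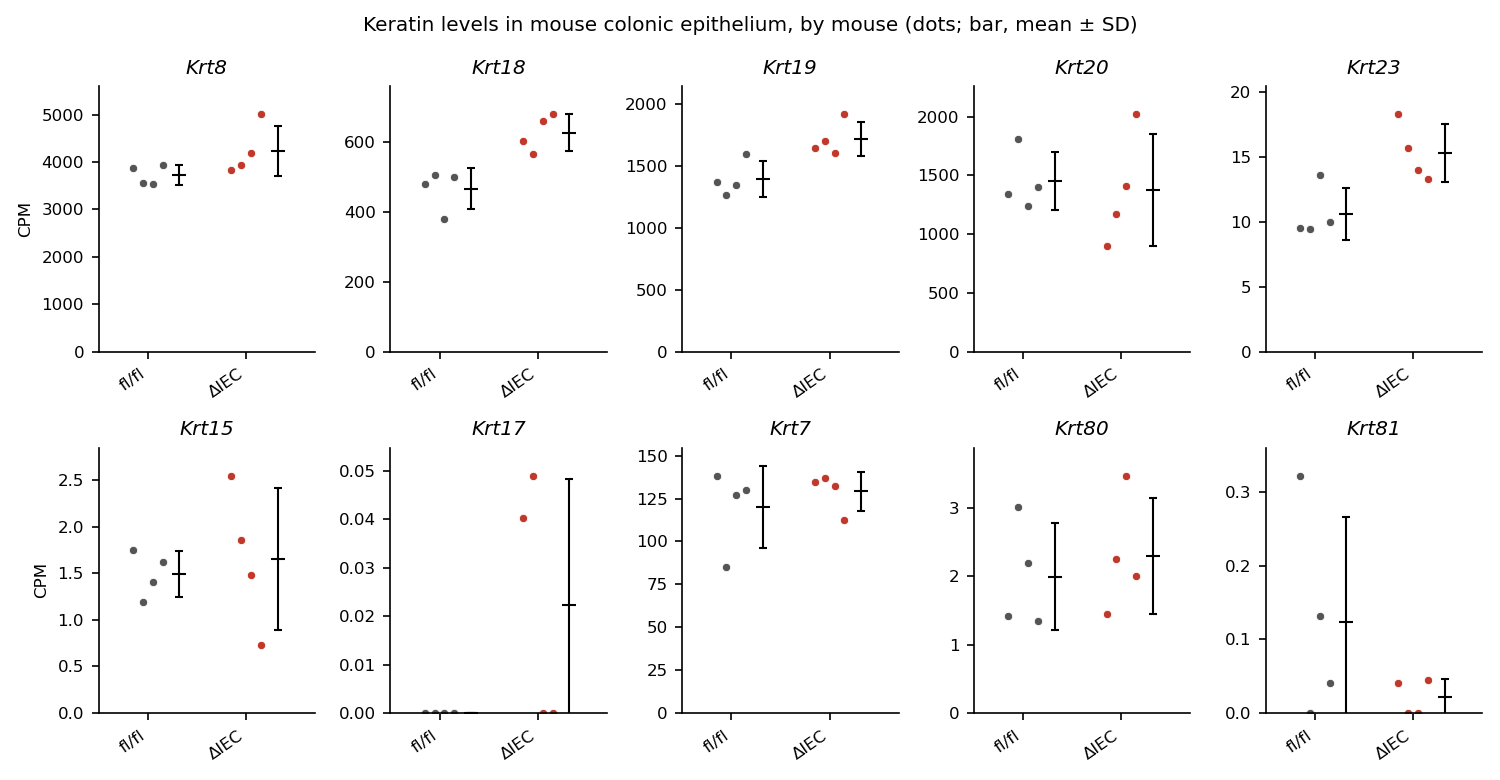
Level of the 10 mouse keratins (CPM on TMM library sizes, vertical axes from 0 and scaled per gene) in each Dnmt3a fl/fl and Dnmt3a ΔIEC mouse; dots are mice and bars the mean ± SD. Krt18 (379 to 504 against 565 to 678 CPM) and Krt19 (1261 to 1596 against 1599 to 1912 CPM) do not overlap between genotypes, and Krt20 does.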

How the data were processed

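Per the labels and headers, the authors trimmed the reads (Trim Galore 0.4.4), aligned them with STAR 2.5.2b to GRCh38 or GRCm38 and counted fragments per gene with featureCounts (reverse-stranded in human, unstranded in mouse). The deposited values are whole-number counts without normalization. DNMT3A1 replicate 3 was not analysed here. For each pair of groups, counts were filtered with filterByExpr, normalized by TMM and tested with the quasi-likelihood F test of edgeR 4.0.16 (R 4.3.3), with p-values adjusted by Benjamini-Hochberg over every gene in the fit and a threshold of 0.05. DESeq2 1.42.0 was an alternative. Levels are CPM on TMM library sizes. Levels per kb use the exon length that featureCounts summed. Intervals are 95%. Fragments carried no molecular identifiers, so a floor of 3 counts per library covers counting error only. Symbols were found for 56948 of 58051 human identifiers (98.1%). The keratins, gene lists and tests were chosen with earlier results of these data known. Named besides the 10 keratins are up to 4 genes past the threshold with the largest change and at least 1 CPM per list, and up to 3 genes most alike each keratin. The hair keratins and the genes of marker checks were named outside this limit, the hair keratins after their values were seen. On simulated counts with 200 genes changed by 1 on the log2 scale, the fit recovered 92.5% for ΔDNMT3A against WT (16654 genes) and 70.5% for ΔIEC against fl/fl (14626 genes), and 7.04% and 7.24% of calls were false. Replicate libraries differed by more than counting noise, so no library was counted as a duplicate. Sums and ratios were computed in Python 3.11.15 (pandas 2.3.3, numpy 2.4.6) and plots drawn with matplotlib 3.10.9.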

Additional observations from a re-analysis of the deposited data

Results flagged for a closer look

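Among 49 groups of keratin values with 4 libraries, 2 held a library far from the others, as chance gives for about 1 group in 20. KRT23 was 2.64 CPM in ΔDNMT3A replicate 2, above the other 3 libraries of that line, and Krt23 was 13.6 CPM in Dnmt3a fl/fl replicate 3, above the other 3 controls.

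Both isoform lines were made from ΔDNMT3A, and 6 keratins differed between them by edgeR's test of DNMT3A1 against the libraries labelled DNMT3A2. KRT23 was lower in DNMT3A1, with a log2 fold change of -3.78, and so was KRT17 (-1.24). KRT17 passed the filter on low counts there only through the libraries labelled DNMT3A2, where it is higher, so its direction was fixed by it. KRT20 (1.28), KRT15 (0.71), KRT8 (0.33) and KRT18 (0.29) were higher in DNMT3A1. Each line is 1 clone, so isoform and clone cannot be told apart.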

How the results depend on the processing

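Of 37 keratin results past the threshold, 9 lost the call under at least 1 alternative and 0 turned direction; of 20 not past it, 3 gained the call and 10 turned direction under at least 1. The causes were not tested. Requiring a log2 fold change of at least 1 left 4 keratins in ΔDNMT3A against WT, 2 in DNMT3A1 against ΔDNMT3A, 5 in DNMT3A2 against ΔDNMT3A, 2 in DNMT3A1 against WT, 2 in DNMT3A2 against WT and 3 between the isoform lines. Lane 5 alone, with fewer libraries, left 4 in DNMT3A1 against ΔDNMT3A and 2 in DNMT3A1 against WT. Lane 6 alone holds 1 DNMT3A1 library, so no such count is given for it. DESeq2 called 1 mouse keratin. Type II to type I ratios without length were 0.902 for WT, 0.901 for ΔDNMT3A, 0.886 for DNMT3A1 and 0.812 for DNMT3A2, and with the canonical transcript's length, a choice made after the data were seen, 0.712, 0.713, 0.700 and 0.644.

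Leaving out 1 library at a time gave 6 to 7 keratins in ΔDNMT3A against WT, 5 to 7 in DNMT3A1 and 7 to 8 in DNMT3A2 against ΔDNMT3A, 3 to 4 and 4 to 6 against WT, 6 to 6 between the isoform lines and 0 to 0 in mouse.

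The values that turned direction were all short of the threshold. For KRT19 in DNMT3A1 against WT they were 0.00020 (DESeq2), 0.00017 (RLE), 0.0036 (upper quartile), 0.0027 (all 4 lines in 1 fit) and 0.043 (lane 6), and -0.036 to 0.029 over libraries left out. KRT19 in lane 6 gave 0.028 in DNMT3A1 against ΔDNMT3A, -0.0055 in DNMT3A2 against WT and 0.040 between the isoform lines; without the filter it gave -0.00016 in DNMT3A2 against WT. Over libraries left out it ran from -0.0075 to 0.018 in DNMT3A2 against WT and from -0.057 to 0.0062 between the isoform lines. KRT17 in DNMT3A1 against ΔDNMT3A was -0.034 in lane 6 and ran from -0.061 to 0.31, and KRT80 in DNMT3A1 against WT from -0.68 to 0.29. In mouse, Krt15 ran from -0.16 to 0.40, Krt20 from -0.33 to 0.069, Krt7 from -0.036 to 0.17 and Krt80 from -0.073 to 0.44.

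With the replicate number as a block, 7 keratins passed in ΔDNMT3A against WT, 6 in DNMT3A1 and 8 in DNMT3A2 against ΔDNMT3A, 4 and 5 against WT and 6 between the isoform lines, and KRT19 in DNMT3A1 against WT was 0.0059. Same-numbered libraries did not deviate together (correlations from -0.03 to 0.06), so the numbers were not taken as pairs. Mouse labels give no pairing. Differences of lowly counted members (KRT7, KRT17, KRT80, KRT81) are limited by depth.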
